A study of Mus musculus with 12 samples.

Results

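The genes described are the collagens and matrix glycoproteins of the mouse liver, with the enzymes and the chaperone that fold, trim and crosslink collagen. They were chosen as a list of 52 genes named by the platform's annotation. Each gene was read from 1 probe set, a group of short probes that gives 1 signal for a transcript. It was the one of highest mean signal over the 12 arrays, where that mean was at least 20. Probe sets ending in _x_at were used only where a gene had no other. This rule kept 46 of the 52 genes, out of 11099 genes represented in the whole table. Col4a3, Col8a1, Fmod and Vcan were too dim, with mean signals of 13.4, 16.9, 16.8 and 8.71. Fbn1 and Loxl2 were not analysed here, and both probe sets that name Loxl2 also name another gene. Members just inside the minimum were Tnc with a mean signal of 21.2, Fbln1 with 22.0, Col15a1 with 22.8, Nid2 with 23.9 and Col4a4 with 24.8. The rule used the mean over all arrays and no difference between groups.

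Livers came from C57BL/6 mice that were 8 weeks old at the start and were labelled as fasting when the organ was taken. The mice were fed for 8 weeks on normal chow (NC), on a diet rich in fat and without methionine and choline (MCD+HF), or on that diet containing 0.1% metformin (MCD+HF+Met), with 4 mice and 4 arrays in each group. The MCD+HF diet is a dietary model of nonalcoholic steatohepatitis in mice without diabetes, and metformin, a drug for type 2 diabetes, was in the food throughout. The comparisons therefore ask how the diet changed these transcripts and how far metformin taken with it altered that change. Signals are linear intensities that the authors scaled to an average of 100 per array, and changes are differences of log2(signal + 10) from limma, called at a Benjamini-Hochberg adjusted p under 0.05 over 22832 probe sets. The added 10 understates the change of dim genes, and levels of different genes cannot be compared, since each is read by its own probes.

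In the injured liver the matrix between cells is made chiefly by hepatic stellate cells, which lie beside the sinusoid, store vitamin A at rest and turn into contractile myofibroblasts when activated. Fibrillar collagens assemble into the ropes of a scar, type IV collagen and laminins form basement membranes, and small leucine-rich proteoglycans coat the fibrils and set their spacing. New collagen chains are hydroxylated and folded in the endoplasmic reticulum with the help of the chaperone Hsp47, trimmed outside the cell and then crosslinked by lysyl oxidases. Hepatocytes also make matrix proteins, among them plasma fibronectin and collagen XVIII.

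The fibrillar collagens did not all move the same way, and the stretch of 250 bases before the start of the gene is shown for the 4 of them that had an entry in the RefSeq promoter table, to set the type V chain that was lower on the diet (Col5a3) beside 3 chains that were higher. Capitals mark the motifs searched on both strands, which were TATAAA (the TATA box), CCAAT (the box bound by NF-Y), GGGCGG (the GC box bound by Sp1) and CAGACA (part of the box bound by SMAD proteins). The positions on GRCm38.p6 are chr6:4505368-4505617 on the plus strand for Col1a2, chr1:45311288-45311537 on the plus strand for Col3a1, chr2:27886175-27886424 on the plus strand for Col5a1 and chr9:20815068-20815317 on the minus strand for Col5a3. All are written 5′ to 3′ in the direction of the gene.
Col1a2: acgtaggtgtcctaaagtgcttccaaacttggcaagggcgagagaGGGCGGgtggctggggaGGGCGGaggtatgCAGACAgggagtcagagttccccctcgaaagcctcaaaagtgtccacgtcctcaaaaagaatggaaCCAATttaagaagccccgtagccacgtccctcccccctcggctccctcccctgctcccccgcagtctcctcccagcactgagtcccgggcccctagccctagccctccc
Col3a1: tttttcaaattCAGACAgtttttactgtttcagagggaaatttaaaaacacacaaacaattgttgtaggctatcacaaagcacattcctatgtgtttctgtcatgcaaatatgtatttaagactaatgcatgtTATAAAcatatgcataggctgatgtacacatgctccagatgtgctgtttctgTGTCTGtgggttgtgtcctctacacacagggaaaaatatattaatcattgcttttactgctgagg
Col5a1: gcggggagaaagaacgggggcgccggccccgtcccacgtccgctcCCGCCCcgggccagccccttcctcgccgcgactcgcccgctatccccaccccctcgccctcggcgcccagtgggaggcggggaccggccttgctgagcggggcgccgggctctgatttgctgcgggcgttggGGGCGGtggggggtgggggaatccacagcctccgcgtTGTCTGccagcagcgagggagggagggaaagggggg
Col5a3: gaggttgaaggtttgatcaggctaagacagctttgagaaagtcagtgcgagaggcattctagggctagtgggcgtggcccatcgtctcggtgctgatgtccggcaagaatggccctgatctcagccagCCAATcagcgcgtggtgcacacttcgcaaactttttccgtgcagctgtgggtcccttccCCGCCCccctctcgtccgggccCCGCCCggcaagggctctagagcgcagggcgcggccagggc

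Col1a2 held 2 GGGCGG matches, 1 CCAAT match and 1 CAGACA match. Col3a1 had a TATAAA match and 2 CAGACA matches in a stretch with a GC content of 35.2%, against 62% in Col1a2, 76.4% in Col5a1 and 62.8% in Col5a3. Col5a1 held 2 GGGCGG matches and 1 of CAGACA, and Col5a3 held 2 GGGCGG matches and 1 of CCAAT. Of the 46 genes, 31 had an entry, with 36 starts in all. GGGCGG lay in 22 of these 36 stretches (61.1%), against 32.7% of all 32851 stretches in the table. CAGACA lay in 27.8% of them against 17.1% of all, CCAAT in 27.8% against 33.8%, and TATAAA in 16.7% against 12.4%. These are matches of letters and were not tested as sites. The 52 listed genes also include 5 pairs of direct neighbours among protein-coding genes, namely Col3a1 and Col5a2, Col4a1 and Col4a2, Col4a3 and Col4a4, Col6a1 and Col6a2, and Dcn and Lum.

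No array stood apart, with mean correlations to the other arrays of its own group between 0.972 and 0.983. Liver markers were present, with Alb, the gene of serum albumin, at a mean signal of 8436 or more in each group. Markers of 5 cell types were read beside the matrix genes. The summed signal of 11 stellate cell and myofibroblast markers ranged from 1369 to 1678 in NC mice, from 3695 to 4302 on the diet and from 3312 to 4943 on the diet with metformin. That of 6 hepatocyte markers ranged from 66651 to 80499, from 33803 to 43083 and from 36864 to 47863. That of 7 macrophage markers ranged from 2290.4 to 2885, from 4296 to 6369.8 and from 2170.4 to 3410.2, and that of 5 cholangiocyte markers from 23.8 to 81.1, from 343 to 490.3 and from 219 to 500. The 7 endothelial markers summed to 702 to 882, 785 to 950.1 and 796 to 883. None of 6 T or B lymphocyte markers was among the genes tested. Whether each was too dim or had no probe set named alone was not separated. A sum gives most weight to the brightest markers of its list. Of the 7 macrophage markers, 5 were higher on the diet and 1 was lower, beside 27.4% and 20.8% of all genes. The lower one was Clec4f, at -1.36 (log2, standard error 0.27, adjusted p = 7.7e-04). In bulk liver, fewer cells of a type and less RNA per cell cannot be told apart. RNA quality was read from the ratio of a 3′ probe set to a 5′ probe set of the same gene. For beta-actin it was 1.73 ± 0.14 in NC mice, 1.54 ± 0.069 on the diet and 1.74 ± 0.11 on the diet with metformin (SD, n = 4). For Gapdh it was 0.710 ± 0.012, 0.699 ± 0.012 and 0.757 ± 0.045 in the same order. The part of these values in the results below was not tested.

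The MCD+HF diet raised most of the matrix genes. Of the 46, 34 were higher and 3 lower than in NC, while 27.4% of all genes tested were called higher and 20.8% lower. Their median log2 change was 1.28, against 0.05 over all genes. With metformin, 1 of the 46 was higher and 4 were lower than in MCD+HF, where 1.63% of all genes were called higher and 2.34% lower. The median was -0.26 against 0.01, with 36 of the 46 differences below 0, as were 5376 of all 11099 genes. The 46 genes were read in the same mice, so their differences are not independent. Against NC, MCD+HF+Met livers had 29 genes higher and 3 lower, with 25.6% of all genes higher and 18.6% lower, and a median of 1.02 against 0.06. Of the 46 genes, 32 had 4 MCD+HF values above all 4 NC values and 4 had them below. Such separations were shown by 25.0% and 20.1% of all genes.

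The minimum signal bears on these counts, because a gene can pass it through the diet groups alone. For 10 of the 46 genes the NC mean was under 20, and these were Col1a1, Col4a4, Lama2, Lama4, Col6a2, Ogn, Thbs1, Thbs2, Tnc and Lox. Among the other 36 genes, 24 were higher and 3 lower on the diet, and 1 was higher and 4 were lower with metformin. In MCD+HF+Met against NC, 22 of them were higher and 3 lower. Shares over all genes with an NC mean of at least 20 were not counted. Without that limit, 27.4% of all genes were higher and 20.8% lower on the diet, and 1.63% and 2.34% with metformin. With no minimum signal, 35 of 50 genes were higher on the diet and the same number as before, 3, were lower. Over all 45037 probe sets of that fit, 6030 were higher and 4786 lower. In that fit Fmod (fibromodulin, a proteoglycan of collagen fibrils) had a log2 change of 0.80 with an adjusted p of 0.0152, Col8a1 1.00 with 0.0193, Vcan 0.53 with 0.0728 and Col4a3 0.73 with 0.0784.

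**Figure D1:**
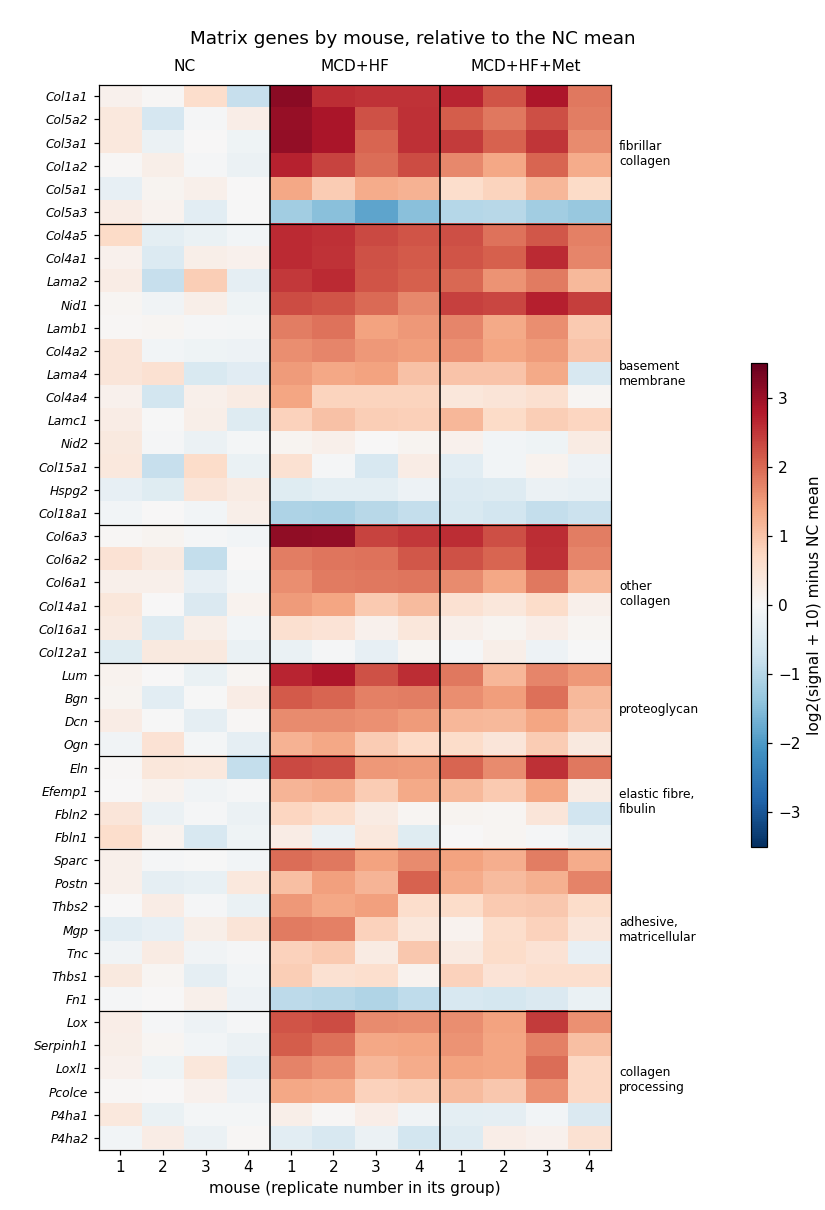
Each row is 1 of the 46 genes and each column 1 mouse; colour gives log2(signal + 10) minus the mean of the 4 NC mice, red for higher and blue for lower, and lines separate the groups of mice and the roles of the genes. Most rows are red in all 8 mice on the diet, and Col5a3, Col18a1 and Fn1 are blue in all of them, as is Hspg2 more faintly.

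Of the 6 fibrillar collagens, 5 were higher on the diet and 1 was lower, beside 27.4% and 20.8% of all genes. Their median log2 change was 2.48. Col1a1, which encodes the alpha-1 chain of type I collagen, had signals of 18.6, 16.2, 29.1 and 4.6 in the NC mice, 217, 144, 138 and 137 in the MCD+HF mice and 152, 107, 171 and 81.2 in the MCD+HF+Met mice. All 4 MCD+HF values were above all NC values, and the log2 change with the diet was 2.70 (standard error 0.27, adjusted p = 9.7e-07). Col5a2, a chain of the type V collagen that starts new fibrils, had signals of 41.1, 16.5, 28.7 and 36.6 in the NC mice, 319.5, 277, 176 and 225 in the MCD+HF mice and 162, 132, 178 and 126 in the MCD+HF+Met mice. It rose by 2.68 (log2, standard error 0.21, adjusted p = 6.8e-08). Type III collagen, the product of Col3a1 and a partner of type I in early scar, had signals of 345, 230.4, 269 and 237 in the NC mice, 2316, 2001, 1120.1 and 1617 in the MCD+HF mice and 1489, 1139.8, 1544 and 858 in the MCD+HF+Met mice. Its change was 2.63 (log2, standard error 0.21, adjusted p = 1.2e-07), and MCD+HF mouse 3 was the lowest of its group. The mean signal of Col3a1 was 270.3 ± 52.4 in NC and 1764 ± 515 in MCD+HF mice (SD, n = 4), a ratio of 6.53. Col1a2, the second chain of type I collagen, changed by 2.32 (log2, standard error 0.17, adjusted p = 4.4e-08) and is described with metformin below. Col5a1 changed by 1.19 (log2, standard error 0.16, adjusted p = 1.8e-05), from a mean of 40.8 ± 6.84 in NC to 106 ± 16.1 in MCD+HF mice (SD, n = 4).

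The exception was Col5a3, the alpha-3 chain of type V collagen. Its signals were 135, 123, 84.9 and 109.5 in the NC mice, 42.5, 34.2, 23.7 and 34 in the MCD+HF mice and 51.1, 52.5, 42.7 and 38.7 in the MCD+HF+Met mice. All 8 mice on the diet were below all 4 NC mice, with a log2 change of -1.50 (standard error 0.17, adjusted p = 3.0e-06) on the diet and of -1.12 (standard error 0.17, adjusted p = 6.9e-05) in MCD+HF+Met against NC. The other two type V chains rose in the same livers.

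**Figure D2:**
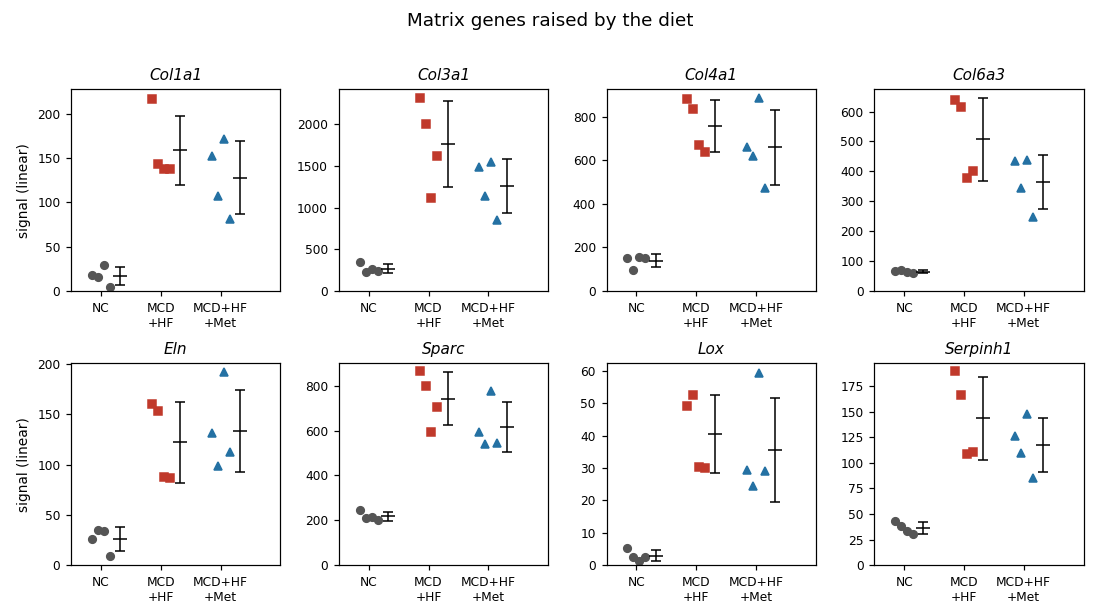
Linear signal of 8 matrix genes that rose on the diet, with 1 point per mouse for NC (circles), MCD+HF (squares) and MCD+HF+Met (triangles), and the mean with its SD (n = 4) as a bar to the right of each group; each vertical axis starts at 0 and has its own scale. In every panel all 4 MCD+HF points are above the NC points, and the MCD+HF+Met points overlap those of MCD+HF.

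Basement membrane genes rose less evenly. Of the 13 tested, 9 were higher on the diet, 1 was lower and 3 did not pass the test, with a median log2 change of 1.32. Shares over all genes were 27.4% higher and 20.8% lower. Col4a5, a type IV collagen chain, had signals of 43.3, 16.3, 18.7 and 21.2 in the NC mice, 195, 187, 157 and 144 in the MCD+HF mice and 150.3, 115, 141 and 104 in the MCD+HF+Met mice, a change of 2.42 (log2, standard error 0.20, adjusted p = 1.1e-07). Col4a1, of the main type IV network, had signals of 152, 94.4, 158 and 153 in the NC mice, 880.0, 835, 671 and 637 in the MCD+HF mice and 660.4, 618, 886 and 473 in the MCD+HF+Met mice. NC and MCD+HF mice did not overlap, and the change was 2.37 (log2, standard error 0.18, adjusted p = 7.3e-08). Lama2, the alpha-2 chain of laminin, had signals of 14.4, 1.7, 26.8 and 6.2 in the NC mice, 102, 113, 83.6 and 77.1 in the MCD+HF mice and 72.3, 50.6, 61.7 and 34.9 in the MCD+HF+Met mice, a change of 2.34 (log2, standard error 0.29, adjusted p = 8.0e-06). NC mice were at the dim end of the scale for Lama2. The other 6 that rose, Nid1, Lamb1, Col4a2, Lama4, Col4a4 and Lamc1, had log2 changes between 0.87 and 2.04. They include both remaining chains of a laminin trimer (Lamb1 and Lamc1) and nidogen 1 (Nid1), which links laminin to type IV collagen.

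Col18a1, the gene of collagen XVIII, was the basement membrane gene that fell. Its signals were 1955, 2089, 1934 and 2384 in the NC mice, 979.5, 968, 1065 and 1168 in the MCD+HF mice and 1428, 1338, 1154 and 1241 in the MCD+HF+Met mice. Every diet-fed mouse was below every NC mouse, and the log2 change was -0.99 (standard error 0.10, adjusted p = 8.8e-07). Beside it, Alb changed by -1.02 and 4 of the 6 hepatocyte markers were called lower on the diet, where 20.8% of all genes were. The median of that list fell by 1.00. Whether the lower hepatocyte signal has a part in the value of Col18a1 was not tested.

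Nidogen 2, perlecan and collagen XV did not pass the test. Nid2, the second nidogen, had signals of 31.1, 21.3, 18.1 and 20.8 in the NC mice, 25, 27, 22.5 and 25 in the MCD+HF mice and 26.3, 20.3, 19.5 and 29.9 in the MCD+HF+Met mice, with a change of 0.10 (log2, standard error 0.17, adjusted p = 0.659). Hspg2, which encodes the heparan sulfate proteoglycan perlecan, had signals of 98.9, 89, 169 and 151 in the NC mice, 88.8, 94.9, 94.4 and 106 in the MCD+HF mice and 85, 87.4, 105 and 101 in the MCD+HF+Met mice. Its change was -0.33 (log2, standard error 0.17, adjusted p = 0.131), and NC mice 3 and 4 were the highest of the 12. A second probe set of Hspg2 rose by 0.90 on the diet with an adjusted p of 2.2e-04, and so the probe sets of this gene differed in direction. Col15a1, the collagen nearest in kind to Col18a1, had signals of 31.6, 8.4, 40.5 and 17.5 in the NC mice, 36.1, 21.5, 11.6 and 28.5 in the MCD+HF mice and 14.7, 19.9, 24.8 and 18.5 in the MCD+HF+Met mice. NC mice spanned the values of both other groups, and its change was 0.05 (log2, standard error 0.29, adjusted p = 0.914).

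Among the other collagens, all 3 chains of type VI rose on the probe sets read, but Col6a2 was not called on its other one. Col6a3, the long chain of the type VI beaded filaments, had signals of 67.1, 70.3, 62 and 59.4 in the NC mice, 637, 616, 376 and 401 in the MCD+HF mice and 434, 345, 438 and 247 in the MCD+HF+Met mice, and the change of 2.75 (log2, standard error 0.19, adjusted p = 2.1e-08) came with a ratio of the mean signals of 7.84. Col6a2 had signals of 25.9, 22, 4.2 and 15.9 in the NC mice, 79, 82.6, 85.1 and 105 in the MCD+HF mice and 109, 95, 139.7 and 73.4 in the MCD+HF+Met mice, a change of 1.93 (log2, standard error 0.25, adjusted p = 1.2e-05). Its other probe set changed by 0.22 (adjusted p = 0.335) and was not called. That one ends in _x_at and had the higher mean signal, 77.0 against 69.7. Col6a1 had signals of 52.2, 51.5, 34.9 and 42.3 in the NC mice, 159, 184, 185 and 191 in the MCD+HF mice and 164, 131, 186 and 112 in the MCD+HF+Met mice, a change of 1.79 (log2, standard error 0.15, adjusted p = 2.0e-07). All 3 chains separated NC from MCD+HF mice without overlap, as 25.0% of all genes did upward. Col14a1, a collagen that sits on the surface of fibrils, rose by 1.22 (log2, standard error 0.17, adjusted p = 3.9e-05).

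Of the same class as Col14a1, Col12a1 and Col16a1 did not pass. Col12a1 had signals of 26.7, 52.5, 52.4 and 31.7 in the NC mice, 32.1, 37.8, 30.7 and 41.6 in the MCD+HF mice and 37.9, 46.6, 34 and 38.7 in the MCD+HF+Met mice, a change of -0.12 (log2, standard error 0.18, adjusted p = 0.614). Col16a1 had signals of 49.1, 24.6, 44.9 and 34.7 in the NC mice, 59.3, 55.6, 43 and 52.7 in the MCD+HF mice and 43.6, 40.7, 45.6 and 39.9 in the MCD+HF+Met mice. MCD+HF mice had the higher mean but overlapped NC, and the change was 0.40 (log2, standard error 0.17, adjusted p = 0.0645).

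All 4 small leucine-rich proteoglycans that were tested rose on the diet, where 27.4% of all genes did, with a median log2 change of 1.77. Lum (lumican) changed by 2.58 (log2, standard error 0.15, adjusted p = 4.1e-09) and Dcn (decorin) by 1.60 (log2, standard error 0.11, adjusted p = 2.7e-08), and the values of each mouse are given with metformin below. Bgn, the gene of biglycan, had signals of 387, 279.5, 361 and 439 in the NC mice, 1648, 1519.5, 1256 and 1273 in the MCD+HF mice and 1147, 1012, 1402 and 807 in the MCD+HF+Met mice, a change of 1.94 (log2, standard error 0.16, adjusted p = 1.4e-07). Ogn (osteoglycin) rose by 1.04 (log2, standard error 0.21, adjusted p = 7.4e-04). NC and MCD+HF mice did not overlap for any of the 4, an upward separation that 25.0% of all genes showed.

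Elastic fibre genes and fibulins were divided. Eln, the gene of elastin, had signals of 25.5, 35.1, 34.3 and 9.3 in the NC mice, 161, 154, 87.6 and 86.4 in the MCD+HF mice and 131, 98.4, 192 and 112 in the MCD+HF+Met mice, a change of 1.90 (log2, standard error 0.28, adjusted p = 4.5e-05). Efemp1, which encodes fibulin 3, had signals of 125, 136, 113 and 118 in the NC mice, 295, 313, 237 and 322 in the MCD+HF mice and 283, 242, 336 and 153 in the MCD+HF+Met mice, a change of 1.18 (log2, standard error 0.18, adjusted p = 7.6e-05). Both separated NC from MCD+HF mice, as 25.0% of all genes did upward. Fbln1 and Fbln2, glycoproteins of basement membranes and elastic fibres, did not pass. Fbln1 had signals of 38, 24.1, 11.2 and 18.6 in the NC mice, 27.9, 17.2, 30.9 and 13.4 in the MCD+HF mice and 21.8, 23.4, 20.8 and 17 in the MCD+HF+Met mice, with an adjusted p of 0.996 on the diet. Fbln2 had signals of 35.9, 19.6, 22.9 and 19.7 in the NC mice, 46.7, 42.2, 31.4 and 25.3 in the MCD+HF mice and 26.5, 25.4, 35.5 and 11.3 in the MCD+HF+Met mice. The lowest of the 12 was MCD+HF+Met mouse 4, and the change with the diet was 0.43 (log2, standard error 0.24, adjusted p = 0.158).

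Adhesive and matricellular glycoproteins rose in 6 of 7 cases, and fibronectin fell, beside 27.4% of all genes higher and 20.8% lower. Sparc, a collagen-binding protein of remodelling tissue, had signals of 245, 209, 213 and 203 in the NC mice, 867, 801, 595 and 706 in the MCD+HF mice and 595, 541, 778 and 546 in the MCD+HF+Met mice, a change of 1.72 (log2, standard error 0.13, adjusted p = 7.5e-08). Postn, the gene of periostin, had signals of 94.6, 64.5, 67.2 and 109 in the NC mice, 181, 238, 202 and 378 in the MCD+HF mice and 218, 188, 209.6 and 297 in the MCD+HF+Met mice. MCD+HF mouse 4 was the highest of the 12, and the change was 1.44 (log2, standard error 0.21, adjusted p = 5.1e-05). Thbs2 (thrombospondin 2) had signals of 18.6, 24, 17.2 and 13.9 in the NC mice, 70.4, 62.2, 66.9 and 33 in the MCD+HF mice and 34.4, 42.9, 44.3 and 33.8 in the MCD+HF+Met mice, a change of 1.23 (log2, standard error 0.20, adjusted p = 1.1e-04). Mgp, Tnc and Thbs1 rose by 1.20, 0.74 and 0.53 on the log2 scale, and for Mgp and Thbs1 the NC and MCD+HF mice overlapped.

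Fn1, the gene of fibronectin, had signals of 5704, 5894, 6638 and 5133 in the NC mice, 3106, 2985, 2798 and 3137 in the MCD+HF mice and 3953, 3777, 4124 and 4951 in the MCD+HF+Met mice. All MCD+HF mice were below all NC mice, with a log2 change of -0.95 (standard error 0.10, adjusted p = 1.3e-06) and a ratio of the mean signals of 0.515, and MCD+HF+Met mice lay between the other groups. This was the brightest of its probe sets; a second one, with a mean signal of 187, changed by -0.01 on the diet, 0.04 with metformin and 0.03 between MCD+HF+Met and NC, none of them called. Fibronectin is a product of hepatocytes, as is albumin, whose transcript fell by 1.02 on the diet; the part of the hepatocyte signal in the value of Fn1 was not tested.

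Of the genes that fold, process and crosslink collagen, 4 of 6 rose, beside 27.4% of all genes. Lox (lysyl oxidase) had signals of 5.2, 2.5, 1.4 and 2.6 in the NC mice, 49.1, 52.5, 30.4 and 30 in the MCD+HF mice and 29.5, 24.4, 59.5 and 29 in the MCD+HF+Met mice, a change of 1.94 (log2, standard error 0.23, adjusted p = 6.8e-06). Serpinh1, the gene of Hsp47, had signals of 43.6, 38.6, 33.5 and 30.2 in the NC mice, 189.6, 166, 109 and 110.4 in the MCD+HF mice and 126, 109.5, 148 and 85.5 in the MCD+HF+Met mice, a change of 1.70 (log2, standard error 0.19, adjusted p = 3.1e-06). Loxl1, a lysyl oxidase that acts on elastin, had signals of 32, 24, 39.7 and 19.5 in the NC mice, 117, 105, 74.8 and 84.2 in the MCD+HF mice and 90.2, 88.3, 138 and 52.6 in the MCD+HF+Met mice, a change of 1.45 (log2, standard error 0.23, adjusted p = 1.0e-04). The 3 genes separated NC from MCD+HF mice without overlap, as 25.0% of all genes did upward. Pcolce, whose product speeds the trimming of procollagen, rose by 1.08 (log2, standard error 0.17, adjusted p = 1.2e-04).

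The prolyl hydroxylase subunits P4ha1 and P4ha2, which make the hydroxyproline that holds the collagen helix together, were not called. P4ha1 had signals of 77.9, 47.7, 55.7 and 55.5 in the NC mice, 69.5, 60.3, 70.1 and 52.6 in the MCD+HF mice and 44.2, 44.7, 54.3 and 38.2 in the MCD+HF+Met mice, a change of 0.09 (log2, standard error 0.15, adjusted p = 0.663). P4ha2 had signals of 31.2, 42.2, 28.3 and 34.9 in the NC mice, 23.8, 19.5, 27.8 and 18.3 in the MCD+HF mice and 22.2, 42, 38.3 and 54 in the MCD+HF+Met mice. All 4 MCD+HF mice were below all 4 NC mice for P4ha2, but its change of -0.45 (log2, standard error 0.20, adjusted p = 0.0801) missed the threshold. The chaperone and the crosslinking enzymes were thus called higher on the diet while the hydroxylase subunits were not; the difference between these genes was not tested.

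**Figure D3:**
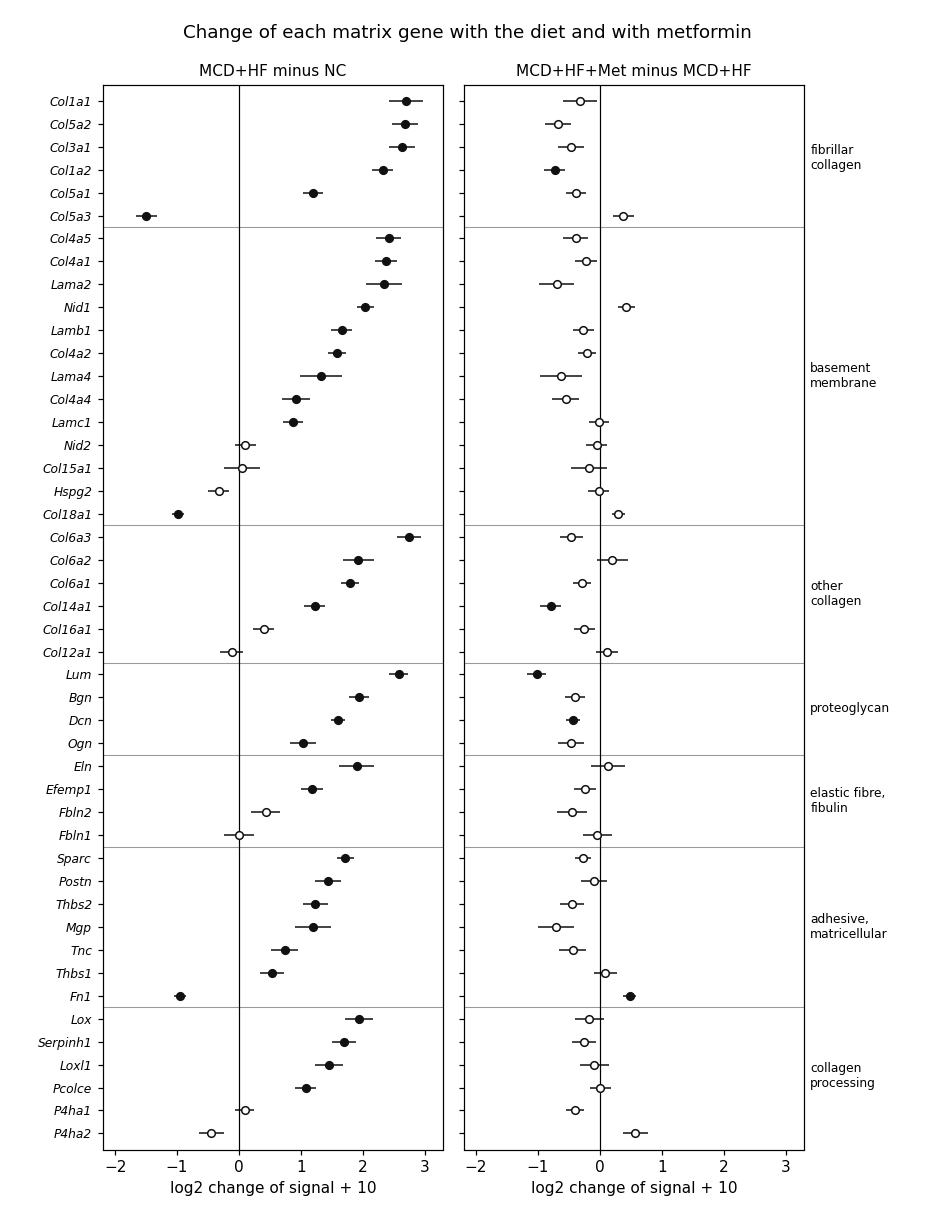
Log2 change of signal + 10 for each of the 46 genes with the diet (left) and with metformin on the diet (right); points are limma estimates, bars are 1 standard error, and filled points passed an adjusted p under 0.05. With the diet 37 points are filled and range from -1.50 to 2.75, and with metformin 5 are filled, namely Col1a2, Col14a1, Lum, Dcn and Fn1.

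With metformin 4 of the raised genes were called lower, namely Lum, Col14a1, Col1a2 and Dcn, and none of these calls held under every alternative. Lum, the gene of lumican, had signals of 138, 128, 107 and 132 in the NC mice, 855, 959.6, 620.2 and 799 in the MCD+HF mice and 474, 294, 434 and 379 in the MCD+HF+Met mice. All 4 MCD+HF+Met mice were below all 4 MCD+HF mice and above all NC mice, and the change with metformin came to -1.02 (log2, standard error 0.15, adjusted p = 0.0024). Mean signals were 126 ± 13.8 in NC, 809 ± 142 in MCD+HF and 395 ± 77.7 with metformin (SD, n = 4), so that the MCD+HF mean was 6.41 times and the MCD+HF+Met mean 3.13 times that of NC. Leaving out any single array kept this call.

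Col14a1 had signals of 318, 240.2, 165 and 261 in the NC mice, 689.8, 640.4, 459 and 528 in the MCD+HF mice and 349, 317, 379.9 and 270.4 in the MCD+HF+Met mice. MCD+HF+Met mice were below all MCD+HF mice and overlapped NC, with a change of -0.79 (log2, standard error 0.17, adjusted p = 0.0222) with metformin and of 0.43 (log2, standard error 0.17, adjusted p = 0.0613) against NC. The call was lost when MCD+HF replicate 1 or 2, or MCD+HF+Met replicate 2 or 4, was left out, with adjusted p-values of 0.061, 0.0779, 0.0664 and 0.0518.

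Col1a2 had signals of 97.3, 112, 92.5 and 80.6 in the NC mice, 669.9, 528, 395 and 502 in the MCD+HF mice and 325, 257, 418 and 249 in the MCD+HF+Met mice. MCD+HF+Met mouse 3 exceeded MCD+HF mouse 3, so the groups overlapped, and the change was -0.73 (log2, standard error 0.17, adjusted p = 0.0293). The mean signal of Col1a2 was 5.49 times the NC mean on the diet and 3.27 times the NC mean with metformin. The call was lost without MCD+HF replicate 1, 2 or 4 (adjusted p of 0.0784, 0.0841 and 0.0554) and without MCD+HF+Met replicate 1, 2 or 4 (0.0509, 0.0958 and 0.0672). In a model of only the groups compared the adjusted p was 0.0514. The other type I chain, Col1a1, changed by -0.32 (log2, standard error 0.27, adjusted p = 0.563). A change in one chain that passed and in the other that did not is no test of a difference between them, which was not made.

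Dcn had signals of 1356, 1122, 908 and 1171 in the NC mice, 3579, 3599, 3449 and 3169.5 in the MCD+HF mice and 2528, 2497, 2969 and 2275 in the MCD+HF+Met mice. Its groups did not overlap, and the change of -0.43 (log2, standard error 0.11, adjusted p = 0.0494) was the closest of the calls to the threshold. Its mean was 3.03 times that of NC on the diet and 2.25 times with metformin. Without NC replicate 2 or 4 the adjusted p was 0.0663 and 0.0548. It was 0.103, 0.132, 0.101 and 0.0582 without MCD+HF replicate 1, 2, 3 and 4, and 0.0938, 0.124 and 0.102 without MCD+HF+Met replicate 1, 2 and 4. The call was also lost with no offset (adjusted p = 0.0588), with no minimum signal (0.0971) and after median centring (0.0659). A second, dim probe set of Dcn, with a mean signal of 20.4, differed by 0.25 in the other direction and was not called. Decorin and lumican are neighbours in the genome, and both bind type I collagen fibrils.

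Fn1 was the gene raised by metformin. Its change against MCD+HF was 0.48 (log2, standard error 0.10, adjusted p = 0.0155), and against NC it was still -0.48 (log2, standard error 0.10, adjusted p = 0.00113). After quantile normalization the change against NC was -0.12 (adjusted p = 0.234). No MCD+HF+Met mouse overlapped MCD+HF. Without MCD+HF replicate 2 the adjusted p was 0.0548. None of the 5 calls with metformin held in the methods' t-test after the same adjustment. There the adjusted p ranged from 0.109 for Lum to 0.194 for Col1a2, and 0 of the 46 genes passed. Over all 22832 probe sets that test called 3 higher and 5 lower, so a count of 0 does not set these genes apart.

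**Figure D4:**
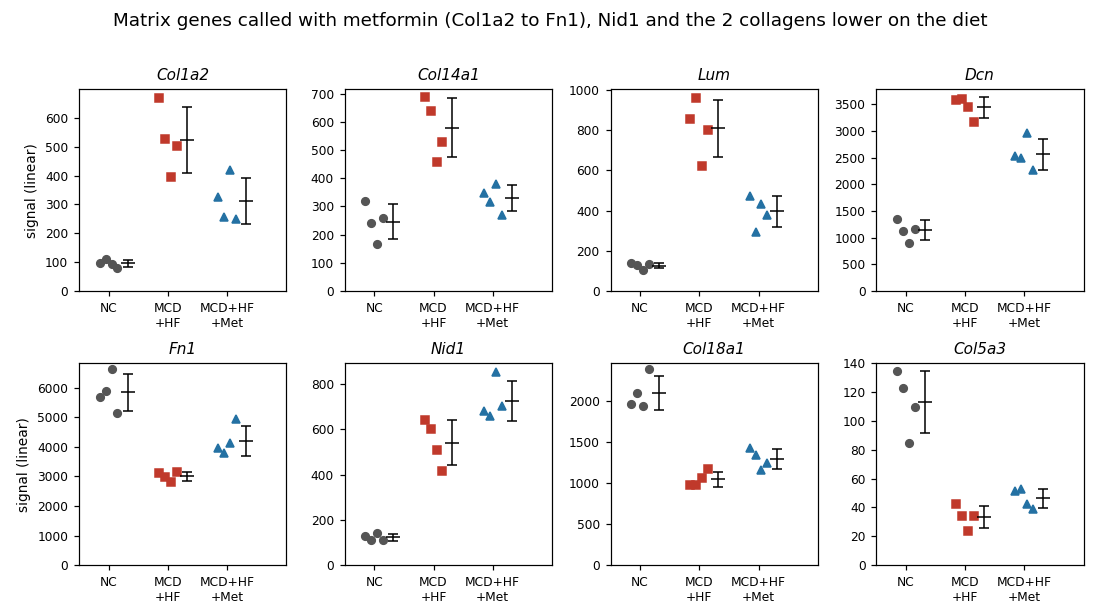
Linear signal of the 5 genes called with metformin, of Nid1 and of both collagens that fell on the diet, with 1 point per mouse and the mean with its SD (n = 4) to the right of each group; each axis starts at 0. Lum, Dcn and Col14a1 show MCD+HF+Met mice below all MCD+HF mice, Fn1 and Nid1 show them above, and Col1a2 shows an overlap.

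The other 41 genes did not pass the test with metformin. By role, and with the called genes included, median log2 changes were -0.43 over the 6 fibrillar collagens, -0.45 over the 4 proteoglycans, -0.27 over the 6 other collagens, -0.27 over the 7 adhesive glycoproteins, -0.21 over the 13 basement membrane genes, -0.14 over the 4 elastic fibre genes and -0.13 over the 6 processing genes. Differences between roles were not tested. Among the fibrillar collagens, Col5a2 changed by -0.68 (log2, standard error 0.21, adjusted p = 0.0834) and Col3a1 by -0.47 (log2, standard error 0.21, adjusted p = 0.242). Nid1 went the other way from most. Chosen after its values were seen, it had signals of 129, 112, 142 and 109 in the NC mice, 639.6, 602, 509 and 414 in the MCD+HF mice and 683, 659.7, 855 and 702 in the MCD+HF+Met mice. All MCD+HF+Met mice were above all MCD+HF mice, and the change of 0.43 (log2, standard error 0.14, adjusted p = 0.0991) did not pass. Without overlap in the downward direction were Lama2, with -0.70 (log2, standard error 0.29, adjusted p = 0.192), and Col4a4, with -0.55 (log2, standard error 0.22, adjusted p = 0.187), both not called. In all, 2 of the 46 genes separated the groups upward and 5 downward, against 6.42% and 6.2% of all genes.

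Most of the genes raised by the diet were also above NC in mice given metformin. Of the 34 raised genes, 26 were called higher in both diet groups with no call for metformin. The share of all diet-raised genes with this pattern was not counted, so it is not shown to be particular to matrix genes. Among all genes 27.4% were higher on the diet and 25.6% higher in MCD+HF+Met against NC. With metformin 1.63% were higher and 2.34% lower. Col1a2, Lum and Dcn were called lower with metformin and still above NC, at 1.59 (log2, standard error 0.17, adjusted p = 3.0e-06), 1.56 (log2, standard error 0.15, adjusted p = 1.1e-06) and 1.17 (log2, standard error 0.11, adjusted p = 9.4e-07). Col14a1 was lower with metformin and not called against NC. Col4a4, Lama4, Tnc and Mgp had no call with metformin and none against NC, with log2 changes of 0.37, 0.69, 0.29 and 0.49. Col5a3 and Col18a1 were lower than NC in both diet groups. The comparisons share mice, so these counts are not independent of each other.

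Within a group, the same mice were high or low for many of the matrix genes. Averaged over the 46 genes, the mice stood above the NC mean by 1.37, 1.29, 1.02 and 1.07 (log2) in MCD+HF and by 1.01, 0.90, 1.19 and 0.71 in MCD+HF+Met mice, which gives 1.19 ± 0.17 and 0.95 ± 0.20 (SD, n = 4). The groups overlapped in this mean. MCD+HF mice 1 and 2 were both above mice 3 and 4 for 23 of the 34 raised genes (67.6%), against 30.4% of all genes. MCD+HF+Met mouse 3 was the highest of its group for 25 of the 34 (73.5%) and mouse 4 the lowest for 24 (70.6%), against 26.9% and 36.3% of all genes.

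The marker sums of the same mice are given beside this. Stellate cell and myofibroblast markers summed to 4255, 4302, 3695 and 3745 in MCD+HF mice 1 to 4 and to 3908, 3505, 4943 and 3312 in MCD+HF+Met mice 1 to 4. Mouse 3 was the highest and mouse 4 the lowest of the MCD+HF+Met mice in both the mean over the 46 genes and the stellate sum, while in MCD+HF mice the mean over the 46 genes was highest in mouse 1 and the stellate sum in mouse 2. Cholangiocyte markers summed to 490.3, 444.5, 384 and 343 in MCD+HF mice and to 500, 349, 414.5 and 219 in MCD+HF+Met mice. Hepatocyte markers summed to 33803, 34956, 40119 and 43083 in MCD+HF mice, lower in mice 1 and 2 than in mice 3 and 4, and to 36864, 39464, 44176 and 47863 in MCD+HF+Met mice. Acta2, the smooth muscle actin that marks myofibroblasts, had signals of 85.2, 67.6, 74.7 and 59.8 in the NC mice, 194, 154, 106 and 144 in the MCD+HF mice and 173, 208, 312 and 155 in the MCD+HF+Met mice, and changed by 0.46 (log2, standard error 0.20, adjusted p = 0.225) with metformin. Of the 11 stellate markers 9 were higher on the diet, where 27.4% of all genes were. With metformin 1, Hand2, was lower, at -0.67 (log2, standard error 0.13, adjusted p = 0.0129). Macrophage markers were lower with metformin in 3 of 7 cases, Lyz2, Cd68 and Csf1r, with log2 changes of -1.46, -1.29 and -0.70. Over all genes 2.34% were lower. Clec4f and Cd14 differed upward, by 0.46 and 0.20, and were not called. The 7 macrophage markers summed to 6369.8, 5677, 4629 and 4296 in MCD+HF mice and to 2693, 2170.4, 3314 and 3410.2 in MCD+HF+Met mice. In the methods' t-test after adjustment, 0 of the 11 stellate and 0 of the 7 macrophage markers were called with metformin. That test called 3 higher and 5 lower over all 22832 probe sets. The part of these cell types in the matrix values was not tested.

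**Figure D5:**
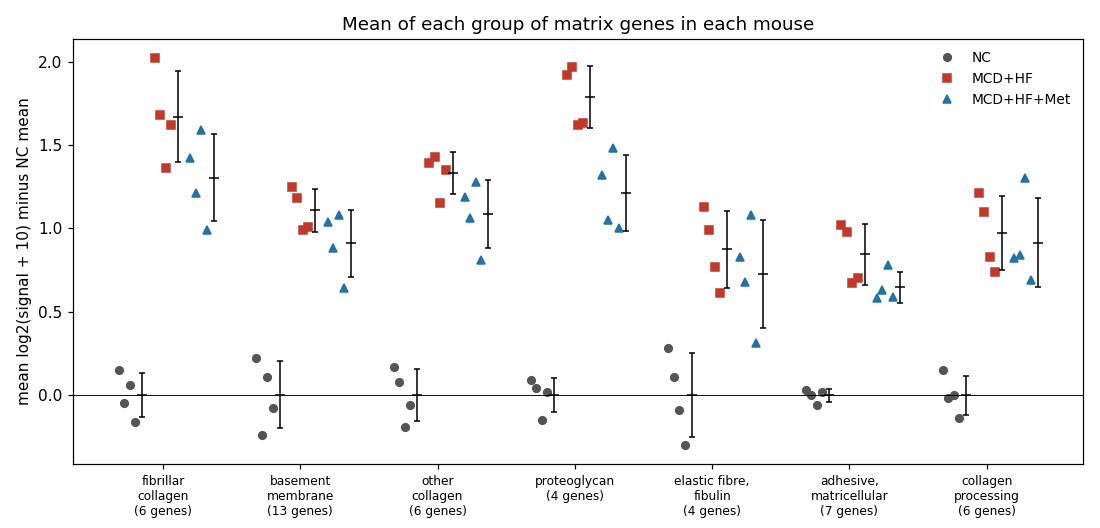
Mean of log2(signal + 10) minus the NC mean over the genes of each role, with 1 point per mouse and the group mean with its SD (n = 4) beside the points. Both diet groups are above NC in every role, and MCD+HF+Met overlaps MCD+HF in every role but the proteoglycans, where its 4 mice lie between 1.00 and 1.48 and the MCD+HF mice between 1.62 and 1.97.

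Several genes were read by more than 1 probe set. Of the 22 such genes, 20 were called on the probe set read in the diet comparison, 15 of them the same way on every probe set and 0 in opposite ways. With metformin 4 of the 22 were called on the probe set read and 1, Col14a1, on every probe set. The second probe set of Col1a2 changed by 3.42 on the diet and by -0.61 with metformin (adjusted p = 0.195). For Ogn the second probe set fell with metformin by 0.82 (adjusted p = 0.0226), where the brightest did not pass.

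Related genes outside the list were counted in the same fit. Of 43 further matrix proteins listed, 27 could be tested. On the diet 17 were higher and 3 lower, where 27.4% of all genes were higher and 20.8% lower. In MCD+HF+Met against NC, 16 were higher and 3 lower, with 25.6% of all genes higher and 18.6% lower. With metformin limma called 0 of the 27, where it called 1.63% of all genes higher and 2.34% lower. At an unadjusted p under 0.05, 3 were higher and 5 lower by limma. The methods' t-test also called 0 of the 27 after adjustment. Sparcl1, a relative of Sparc, rose on the diet by 2.45, Tgfbi, a matrix protein that binds collagen, by 2.26, and the laminin chain Lamb3 by 2.00. The 3 that were lower on the diet were Vtn at -1.13, Lama3 at -1.07 and Col27a1 at -0.93 (log2). Of 12 further collagen-modifying enzymes tested of 21, 7 were higher and 2 lower on the diet, beside the same shares of all genes. The 2 that were lower were Ppib at -0.82 and Bmp1 at -0.68 (log2). The lysyl hydroxylase Plod2 rose by 1.96, the prolyl 3-hydroxylase P3h2 by 1.53, and Crtap, a cartilage-associated protein of the collagen prolyl 3-hydroxylation complex, by 1.09. Tgm2, the transglutaminase that crosslinks matrix proteins, had signals of 500.0, 574, 549 and 526 in the NC mice, 856, 814, 722 and 737 in the MCD+HF mice and 1163, 1072, 1170.4 and 1288 in the MCD+HF+Met mice. It rose on the diet and rose further with metformin, by 0.58 (log2, standard error 0.09, adjusted p = 0.00316), with no overlap among the 3 groups.

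Receptors for the matrix were counted too. Of 20 tested of 23, 13 were higher and 2 lower on the diet, against 27.4% and 20.8% of all genes. The largest rises were those of Cd36, a receptor for thrombospondin and fatty acids, with 3.08, and of the integrin chains Itgb8 with 2.35 and Itga6 with 2.25. The 2 that were lower were Sdc4 at -0.74 and Sdc2 at -0.44 (log2). With metformin 1 was higher and 2 were lower, against 1.63% and 2.34% of all genes. Cd44, the hyaluronan receptor, had signals of 128, 151, 121 and 94.1 in the NC mice, 579, 442, 306 and 273 in the MCD+HF mice and 173, 173, 244 and 163 in the MCD+HF+Met mice. It fell by 1.00 with metformin (log2, standard error 0.21, adjusted p = 0.0155), and no MCD+HF+Met mouse overlapped MCD+HF. Cd36 changed by -0.55 (log2, standard error 0.10, adjusted p = 0.00986). Sdc4, a syndecan that binds fibronectin, had signals of 1117, 1019, 1306 and 1177 in the NC mice, 723, 598, 775 and 664 in the MCD+HF mice and 837, 1035, 1212 and 913 in the MCD+HF+Met mice, and like Fn1 it was lower on the diet and higher with metformin, at 0.52 (log2, standard error 0.12, adjusted p = 0.028). In the methods' t-test after adjustment, 0 of the 20 receptors and 0 of the 12 collagen-modifying enzymes were called with metformin. The calls of Cd44, Cd36, Sdc4 and Tgm2 were thus lost, in a test that called 3 higher and 5 lower over all 22832 probe sets. In MCD+HF+Met against NC, 14 of the 20 receptors were higher and 0 lower by limma, beside 25.6% and 18.6% of all genes. At an unadjusted p under 0.05, 1 was lower by limma and 0 in the methods' t-test.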

How the data were processed

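Total RNA from the liver of each of 12 mice was hybridised to 1 Affymetrix mouse array. The deposited intensities are linear and cover 45101 probe sets; the authors computed them with GCOS and scaled them to an average of 100 per array. Detection and change calls were not used here. Groups and replicate numbers came from the sample labels, and nothing in them pairs mice.

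After 64 control probe sets were left out, log2(signal + 10) was taken without further normalization, and probe sets whose mean signal reached 20, 22832 in all, were fitted with limma 3.58.1 in R 4.3.3 (lmFit on 3 group means, eBayes with a trend of the variance, 9 residual degrees of freedom), with Benjamini-Hochberg adjustment. Names came from the annotation of the platform (34945 with 1 symbol, 932 with several, 9160 unnamed here), with 34741 symbols updated from a RefSeq table of GRCm38.p6; a gene was its brightest probe set, those ending in _x_at only if no other. The fit was also run on simulated data with independent noise for each probe set. Genes read in the same mice are not independent, so that run is no check on the calls given here. The genes, lists and tests were chosen with earlier results of these data known. Each mouse's values are given for genes called with metformin, for the 3 largest called changes of each role on the diet and for genes not called or lower there. Python 3.11.15 and matplotlib 3.10.9 were used for the figures. Alternatives were offsets of 0 and 32, other minimum signals, quantile normalization, median centring, a replicate block, a robust variance, a model of 2 groups, the methods' t-test, the second brightest probe set and each array left out; counting the dim genes too was chosen after the data had been seen. With 4 arrays a group, precision is limited by their number.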

Additional observations from a re-analysis of the deposited data

Results flagged for a closer look

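In each gene and group of 4 mice, the highest and lowest mouse was compared with the other 3 by Dixon's criterion at the 95% level. Of 138 such groups over the 46 genes, 5 stood out, where chance alone gives about 1 in 20. Col1a1 in MCD+HF replicate 1 was at 217, above the other 3 mice at 137.2 to 143.5. Col4a1 in NC replicate 2 was at 94.4, below the others at 151.8 to 157.9, and Col4a2 in NC replicate 1 was at 148.6, above the others at 92.7 to 99.9. Col4a4 stood out in NC replicate 2, with 5.8 against 17.3 to 19.8, and in MCD+HF replicate 1, with 53.4 against 31.7 to 32. None of these mice stood apart over all probe sets.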

How the results depend on the processing

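Over the 46 genes, the diet's counts held within 1.5 times under all alternatives except for genes lower on the diet, which were 5 after quantile normalization and 5 after median centring. On the second probe set, with any ending in _x_at placed last, 17 of the 22 genes that had one were higher and 1 lower on the diet. Calls on the diet were followed singly for 25 genes. These were called with metformin, lower on the diet or among the 3 largest called changes of their role. Of them 22 kept their call under every alternative run, the exceptions being the second probe sets of Col6a2, Dcn and Fn1. The other diet calls were not followed singly. Genes higher on the diet numbered 34 in the main fit and 32 after quantile normalization and in the adjusted t-test. With metformin no call held under all alternatives. Genes higher numbered 2 after median centring, 0 in the methods' t-test with or without adjustment (the latter with a 1.5-fold limit) and 0 on second probe sets, and 0 to 2 with each array left out. Genes lower numbered 0 in the adjusted t-test, 5 in the unadjusted one and 1 to 4 with each array left out. Over all 22832 probe sets the adjusted t-test called 3 higher and 5 lower with metformin. Adjusted p ranged from 0.00134 to 0.109 for Lum, from 0.00915 to 0.119 for Col14a1, from 0.0117 to 0.195 for Col1a2, from 0.0258 to 0.646 for Dcn and from 0.00852 to 0.942 for Fn1. Both turns of direction came from second probe sets. Dcn changed by 0.25 with metformin (adjusted p = 0.646) and Fn1 by 0.03 against NC (adjusted p = 0.932), where 1 gene was lower. Fn1 against NC also missed the threshold after quantile normalization, at -0.12 (adjusted p = 0.234). The causes were not tested.

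Deviations of same-numbered mice from their group means had correlations from -0.134 to 0.251, the highest for replicate 4 of MCD+HF and MCD+HF+Met. Mice of different numbers were not compared, so these values are no test of pairing. With the replicate block, 34 genes were higher and 3 lower on the diet, 1 higher and 3 lower with metformin (Dcn lost, adjusted p = 0.0658), and 30 higher and 3 lower in MCD+HF+Met against NC. Median centring moved the median of all probe sets on the diet from 0.06 to -0.08, and the calls over all probe sets from 5808 higher and 4191 lower to 4294 higher and 5934 lower (quantile normalization, 4964 and 5263). Of the calls with metformin 35.9% were higher, against 50.7% after median centring.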
